A study of Homo sapiens with 2 samples.

Results

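The cytosolic and mitochondrial chaperones are the proteins that fold other proteins and keep them soluble outside the endoplasmic reticulum. A list of 41 of their genes, together with the heat shock factors HSF1 and HSF2 and the cofactors of the HSP70 and HSP90 machines, was followed through RNA-seq of PLC-8024 cells. TPM (transcripts of a gene, corrected for its length, per fixed total of transcripts) was listed for 58174 genes, from which the members were taken by gene symbol. All 41 were found, each with at least 1 TPM in 1 library or both, a level that 14929 genes reached. PLC-8024 is an established human hepatocellular carcinoma (HCC) line. Its cells were infected with lentivirus that carried full-length GDF1, a secreted TGF-β family ligand (PLC-8024-GDF1), or a control vector (PLC-8024-CTR), here called the GDF1 and the control library, and both lines were selected with puromycin. There was 1 library per condition and so no replicate, which means that every difference below describes these 2 libraries, with no error, no test and no p-value.

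Chaperones work in relays. HSP70 proteins bind exposed hydrophobic stretches of unfolded chains in a cycle driven by ATP, J-domain proteins bring them their clients, and nucleotide exchange factors such as HSP110 and BAG proteins release the clients again. Kinases, steroid receptors and other unstable clients then pass to HSP90, actin and tubulin fold inside the ring-shaped cytosolic chaperonin, and proteins imported into mitochondria fold with mitochondrial HSP70 and the HSPD1-HSPE1 chamber. Small heat shock proteins hold unfolded chains without using ATP. On heat or proteotoxic stress HSF1 forms trimers that bind heat shock elements, repeats of the bases GAA in alternating orientation, and raises the transcription of many of these genes, and HCC cells are known for high levels of several of them.

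The libraries themselves were examined before the chaperones. TPM values sum to the same total in every library, 999990 and 999995 here, so the depth is unknown. The introduced gene, GDF1, stood at 2.096 TPM in control and 4.64 TPM in GDF1 cells, and CERS1, whose annotated exons overlap those of GDF1, at 13.3 and 9612 TPM. Hepatocyte markers summed to 9800 TPM in the control and 5402 TPM in the GDF1 library. As deposited, 7 of 7 were lower in PLC-8024-GDF1, against 63.3% of all genes with at least 1 TPM. Past 2-fold lower were 4 (9.61% of all genes), ALB with 14.98 and 6.07 TPM among them. After the rescaling described below 7 of 7 were lower (50% of all genes) and 3 past 2-fold (6.52%). With the GC trend removed, also described below, 6 of 7 were lower (46.6%) and 3 past 2-fold (5.38%). The 5 liver progenitor markers summed to 43.6 and 33.9 TPM, with AFP at 31.4 and 9.75 TPM, KRT19 at 4.46 and 10.9 TPM, KRT7 at 3.004 and 7.98 TPM, SOX9 at 4.50 and 5.29 TPM, and EPCAM at 0.17 and 0.0001 TPM, the value that stands for 0 in the files. Of the 4 that reached 1 TPM, 3 were higher in PLC-8024-GDF1 and 1 lower (63.3% of all genes), and the lower sum came from AFP. As deposited, 2 of these 4 were past 2-fold higher (4.82% of all genes) and 1 past 2-fold lower (9.61%). Leukocyte markers summed to 298 and 213.5 TPM, nearly all of it LYZ, endothelial markers to 23.5 and 22.4 TPM, and fibroblast markers to 0.205 and 0.844 TPM. Among them PTPRC, VWF, COL1A2 and DCN were at 0.0001 TPM in both libraries. In these bulk libraries fewer cells of a type and less RNA per cell cannot be told apart, and the part of the marker differences in the chaperone values was not tested.

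Most chaperone mRNAs were lower in PLC-8024-GDF1, and 2 were past 2-fold higher. A change is the log2 of the ratio of TPM + 1 in the GDF1 library to TPM + 1 in the control library. The added 1 understates the change of genes with few TPM, and a gene is said to rise or fall only past 2-fold on this scale. HSPA2 and HSPB1 rose, 2 of 41 members, against 4.82% of all 14929 genes. HSPH1, HSPD1, DNAJA3, CCT5 and ST13 fell, 5 of 41 members, against 9.61% of all genes, and the other 34 stayed within 2-fold. Counting differences of any size, 35 of 41 members had a lower value in PLC-8024-GDF1, against 63.3% of all genes. The median change was -0.54 over the members and -0.20 over all genes.

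The median of all genes was also below 0, but this offset was not seen at every level. With a minimum of 50 TPM it was -0.03, and 27 members passed. With a minimum of 100 TPM it was 0.02, and 21 members passed. The rescaling used the same factor at all levels. For abundant members it therefore exceeded any offset seen over genes of that level. When the PLC-8024-GDF1 values were multiplied by 1.18, which sets the median of all genes to 0, the members' median was -0.35 and 29 of 41 were lower, against 50% of all genes. HSPA2 and HSPB1 were then still past 2-fold higher (7.38% of all genes), and HSPH1, HSPD1 and DNAJA3 past 2-fold lower (6.52% of all genes), while ST13 (-0.78) and CCT5 (-0.88) were not. Genes with a high share of the bases G and C also had higher changes. After removal of this GC trend the members' median was -0.23 and 27 of 41 were lower, against 46.6% of all genes. HSPA2 and HSPB1 again lay past 2-fold higher (7.04% of all genes), and HSPH1 and DNAJA3 past 2-fold lower (5.38% of all genes).

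**Figure D1:**
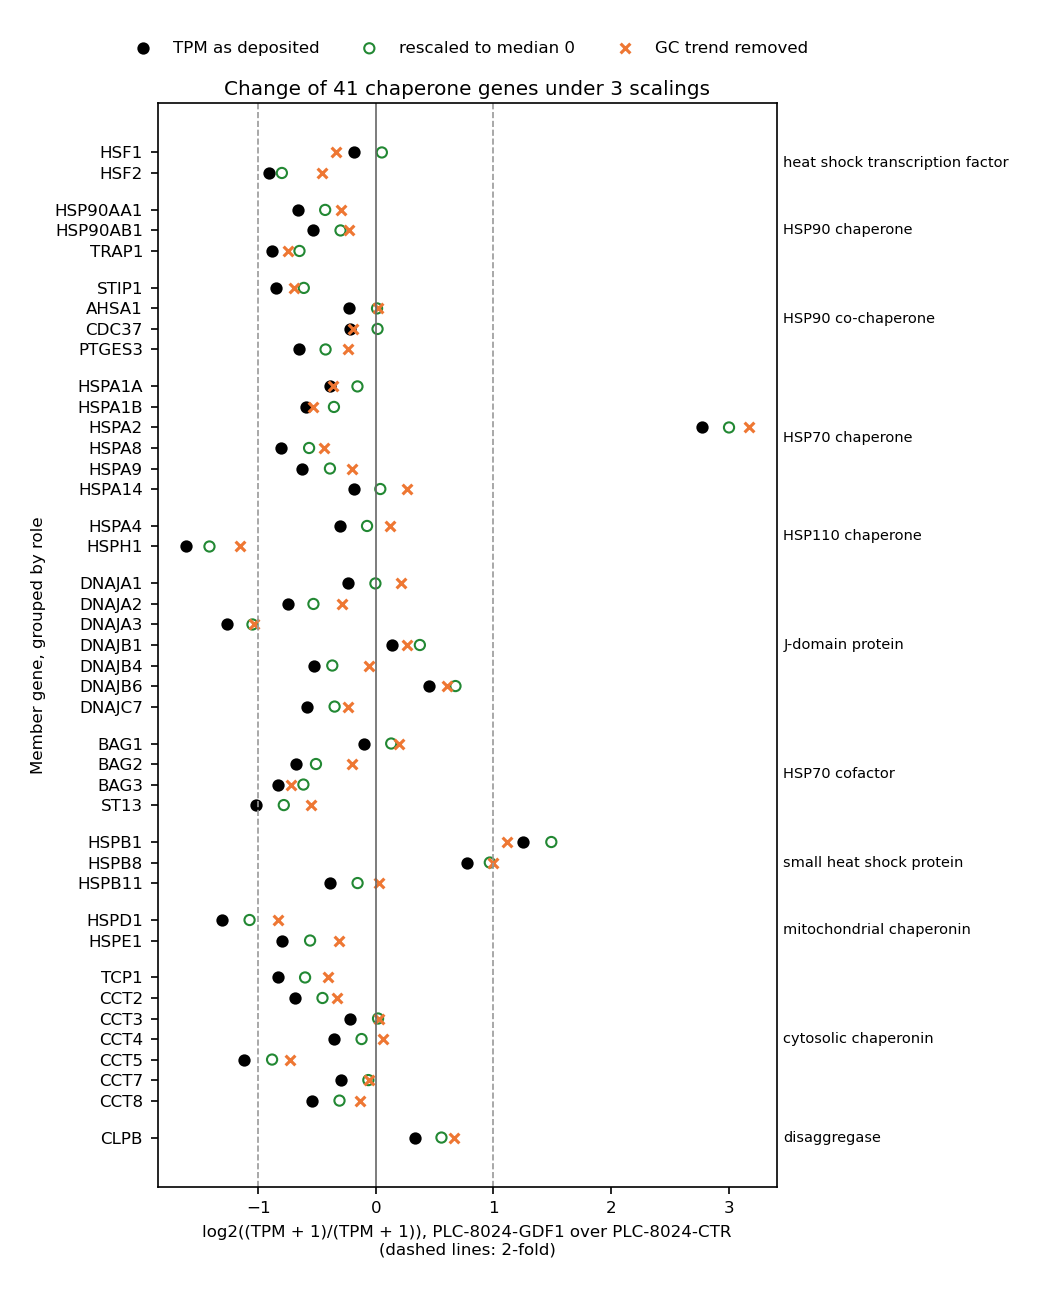
Change of the 41 members, grouped by role on the vertical axis, as the log2 ratio of TPM + 1, GDF1 library over control library. Filled circles are TPM as deposited, open circles the values rescaled to a median of 0 over all genes, and crosses the values with the GC trend removed. HSPA2 (2.78 as deposited) and HSPB1 (1.26) stay past the 2-fold line under all 3, while of the 5 genes below the lower line only HSPH1 (-1.62) and DNAJA3 (-1.27) do.

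The 2 heat shock factors came at very different levels. HSF1, the main activator of the heat shock response, had 65.6 TPM in the control and 57.7 TPM in the GDF1 library, a change of -0.18 that turned to 0.05 on rescaling. HSF2, a related factor that can form mixed trimers with HSF1, had 2.40 and 0.81 TPM, a change of -0.91. HSF2 was the only member to go under 1 TPM in PLC-8024-GDF1. Its difference passes 2-fold when less is added to each value, at -1.46 with a pseudocount of 0.1 and -1.57 as a plain TPM ratio, and is smaller on the other scalings, at -0.80 on rescaling and -0.46 with the GC trend removed. The ratio of HSF1 to HSF2 was 27.3 in PLC-8024-CTR and 71.3 in PLC-8024-GDF1.

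Since HSF1 reads its sites in promoters, the windows from 250 bases before to 50 after the start of each gene (RefSeq, GRCh38.p14) were searched for pairs of the GAA unit, TTCNNGAA or GAANNTTC, and for the 3-unit forms GAANNTTCNNGAA and TTCNNGAANNTTC, which each contain a match to both pairs. TTCNNGAA and GAANNTTC read the same on either strand, and the 3-unit forms are each other's complement, so both strands are covered. Windows were found for 38 of 41 members, and HSF1, HSPA14 and ST13 had none in the table. A pair was present for 18 of 38 members (47.4%), against 16.2% of 27305 genes with a window, and a 3-unit form for 6 of 38 (15.8%), against 0.608% of genes. The 6 were HSPA8, HSP90AA1, HSP90AB1, HSPD1, DNAJA1 and DNAJB6. Shown here, on the strand of the gene, are the promoters of the members that rose, HSPB1 (chr7:76302423-76302722, plus strand) and HSPA2 (chr14:64540491-64540790, plus strand), and of 3 members with a 3-unit form, the constitutive HSP70 gene HSPA8 (chr11:123062087-123062386, minus strand), the constitutive HSP90 gene HSP90AB1 (chr6:44247693-44247992, plus strand, 1 of its windows) and the mitochondrial chaperonin HSPD1 (chr2:197499791-197500090, minus strand, 1 of its windows). Capitals mark the matched bases.
HSPB1: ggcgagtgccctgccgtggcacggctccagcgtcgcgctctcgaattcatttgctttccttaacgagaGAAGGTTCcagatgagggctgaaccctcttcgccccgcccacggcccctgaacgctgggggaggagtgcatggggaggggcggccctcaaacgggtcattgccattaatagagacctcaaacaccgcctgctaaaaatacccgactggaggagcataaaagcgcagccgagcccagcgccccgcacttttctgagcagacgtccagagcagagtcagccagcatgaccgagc
HSPA2: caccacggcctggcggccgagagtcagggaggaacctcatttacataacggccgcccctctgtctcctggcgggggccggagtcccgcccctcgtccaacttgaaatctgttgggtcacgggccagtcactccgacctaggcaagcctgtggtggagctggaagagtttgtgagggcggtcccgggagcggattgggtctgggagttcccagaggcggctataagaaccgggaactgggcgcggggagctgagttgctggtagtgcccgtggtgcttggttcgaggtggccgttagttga
HSPA8: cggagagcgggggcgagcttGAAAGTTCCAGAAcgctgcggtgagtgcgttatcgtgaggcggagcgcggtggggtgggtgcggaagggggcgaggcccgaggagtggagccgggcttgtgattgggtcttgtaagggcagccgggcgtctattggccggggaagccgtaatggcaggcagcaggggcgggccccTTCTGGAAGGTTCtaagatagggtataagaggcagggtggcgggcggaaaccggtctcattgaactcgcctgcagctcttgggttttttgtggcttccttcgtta
HSP90AB1: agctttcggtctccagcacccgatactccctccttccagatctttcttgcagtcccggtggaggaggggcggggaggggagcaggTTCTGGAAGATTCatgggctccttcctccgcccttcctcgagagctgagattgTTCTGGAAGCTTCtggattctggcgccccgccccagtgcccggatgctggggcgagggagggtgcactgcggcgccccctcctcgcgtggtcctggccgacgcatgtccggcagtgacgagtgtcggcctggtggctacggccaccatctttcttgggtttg
HSPD1: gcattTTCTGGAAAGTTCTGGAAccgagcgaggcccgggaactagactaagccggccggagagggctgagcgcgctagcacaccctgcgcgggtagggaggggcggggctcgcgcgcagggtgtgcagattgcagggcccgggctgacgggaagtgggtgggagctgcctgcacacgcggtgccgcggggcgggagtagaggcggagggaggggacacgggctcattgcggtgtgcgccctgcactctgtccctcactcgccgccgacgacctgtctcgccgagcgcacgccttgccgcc

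HSPB1 held 1 pair, 182 bases before the start, and HSPA2 held none. In HSPA8 the 3-unit stretches began 230 and 55 bases before the start, in HSP90AB1 165 and 112 bases before it, and in HSPD1 245 bases before it with the units running on. The median change was -0.56 over the 18 members with a pair and -0.56 over the 20 without, and -0.60 over the 6 with a 3-unit form and -0.56 over the other 32. A match is a description of the letters, and no binding was measured.

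The small heat shock proteins held the most abundant mRNA of the 41 members. HSPB1 (HSP27, ENSG00000106211, GRCh37 chromosome 7, 75931990 to 75933612), which forms large oligomers that hold unfolded proteins and also binds actin, had 1148 TPM in the control and 2743 TPM in the GDF1 library. It ranked 1 among the members in both libraries and rose by 1.26, a higher change than that of 97.25% of all genes, and by 1.49 on rescaling and 1.12 with the GC trend removed. The share of the members' summed TPM that HSPB1 took was 15.4% in PLC-8024-CTR and 38.8% in PLC-8024-GDF1. The GC content of its transcript, 64.3%, is near the top of the members' range. A pseudogene, HSPB1P1, shares 3.02% of its 100-base windows.

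HSPB8, a small heat shock protein that works with BAG3 in the selective removal of damaged proteins, had 2.25 and 4.54 TPM, a change of 0.77 that was short of 2-fold, or 1.02 as a plain TPM ratio. HSPB11, also called IFT25, is named with this family but serves in intraflagellar transport. It had 51.2 and 38.95 TPM, a change of -0.39 that turned to 0.03 with the GC trend removed. CRYAB, the sole other small heat shock gene with at least 1 TPM, was at 3.53 and 3.47 TPM. CRYAB is outside the rule for named genes and was picked after its values were seen.

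**Figure D2:**
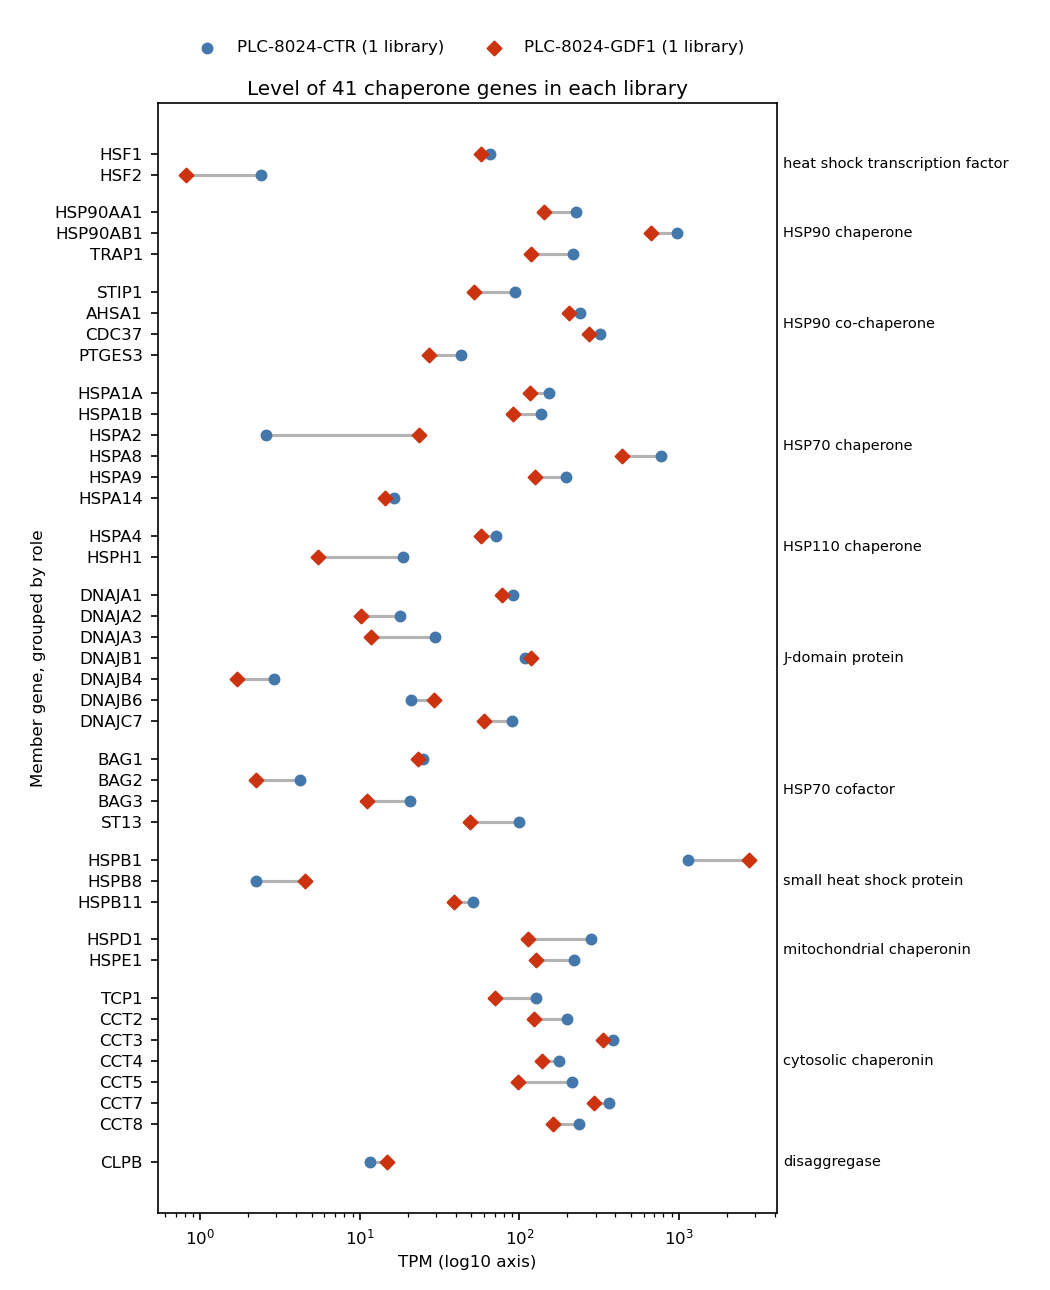
Level of each of the 41 members in PLC-8024-CTR (circles) and PLC-8024-GDF1 (diamonds), in TPM on a log10 axis, grouped by role, 1 library each. HSPB1 is the rightmost point in both libraries, HSPA2 moves from 2.58 to 23.5 TPM, and most other diamonds lie left of their circles.

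Of the 6 HSP70 genes among the members, 5 were lower in the GDF1 library as deposited (63.3% of all genes), and HSPA2 was higher. On rescaling 4 of 6 were lower (50% of all genes), and with the GC trend removed 4 of 6 (46.6%). HSPA2 (ENSG00000126803, GRCh37 chromosome 14, 65002623 to 65012891), an HSP70 best known from the testis, where sperm formation needs it, had 2.58 TPM in the control and 23.5 TPM in the GDF1 library. The plain TPM ratio was 9.11, and the change of 2.78 was above that of 99.8% of all genes, with 3.003 on rescaling and 3.17 with the GC trend removed. In rank among the members HSPA2 went from 39 to 30. No 100-base window of its transcripts was shared with another gene.

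HSPA8, the constitutive HSC70 and the most abundant HSP70 mRNA among the members, had 767.4 and 439.2 TPM, a change of -0.80. HSPA9 (mortalin), the mitochondrial HSP70 that pulls proteins through the inner membrane, had 194.6 and 125.8 TPM (-0.63). Each stayed within 2-fold and was lower under all 3 scalings. The ratio of HSPA8 to HSPA2 was 297.2 in PLC-8024-CTR and 18.7 in PLC-8024-GDF1.

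The stress-inducible HSP70 genes HSPA1A and HSPA1B are near-identical neighbours on chromosome 6 and share 72.4% and 72.8% of their 100-base windows, so the split of reads between them is uncertain. HSPA1A had 153.8 and 117.05 TPM (-0.39) and HSPA1B 137.5 and 91.0 TPM (-0.59). Added up, the pair had 291.3 TPM in the control and 208.0 TPM in the GDF1 library. HSPA14, a ribosome-linked HSP70, had 16.4 and 14.3 TPM, and its change of -0.18 turned positive on both other scalings, at 0.04 and 0.26. HSPA14 shares 13.2% of its windows with the overlapping gene MSANTD7. The 6 HSP70 members summed to 1272 and 810.9 TPM. HSPA5 (BiP), the HSP70 of the endoplasmic reticulum, is no member and was picked after its values were seen. It had 364.6 and 463.0 TPM, a change of 0.34, or 0.58 on rescaling and 0.74 with the GC trend removed, and stood above HSPA8 in the GDF1 library.

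HSPH1 had the lowest change of all members. HSPH1 (HSP110, ENSG00000120694, GRCh37 chromosome 13, 31709110 to 31736525), which frees HSP70 of ADP and helps it to dissolve aggregates, had 18.8 TPM in the control and 5.45 TPM in the GDF1 library. It fell by 1.62 on the log2 scale, by 1.41 on rescaling and by 1.15 with the GC trend removed. HSPA4, the other HSP110 gene among the members, had 71.4 and 57.5 TPM, a change of -0.31 that turned to 0.12 with the GC trend removed. The ratio of HSPA8 to HSPH1 was 40.9 in PLC-8024-CTR and 80.6 in PLC-8024-GDF1.

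Other cofactors that set the pace of HSP70 were lower as deposited (63.3% of all genes), with a median of -0.76 over 4 genes. On rescaling 3 of 4 were lower (50% of all genes), with a median of -0.56. With the GC trend removed 3 of 4 were lower (46.6%), with a median of -0.38. ST13 (HIP, ENSG00000100380, GRCh37 chromosome 22, 41220539 to 41252643), which steadies the client-bound state of HSP70, had 100.02 and 49.0 TPM and fell by 1.015. That value lies at the threshold, and with the pseudogenes ST13P4, ST13P6 and ST13P7 and those of the other members added in it was -0.95. BAG3, which links HSP70 to autophagy, had 20.5 and 11.1 TPM (-0.83). BAG2, an inhibitor of the ubiquitin ligase that tags HSP70 clients, had 4.19 and 2.25 TPM (-0.68), and 42.7% of its exon bases lie opposite those of RAB23. BAG1, which links HSP70 to the proteasome, had 24.8 and 23.1 TPM, a change of -0.10 that turned to 0.13 on rescaling.

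The J-domain proteins, which choose the clients of HSP70, did not move together. DNAJA3 (TID1, ENSG00000103423, GRCh37 chromosome 16, 4475806 to 4506776), the partner of HSPA9 in mitochondria, had 29.8 TPM in the control and 11.8 TPM in the GDF1 library. It fell by 1.27, with -1.05 on rescaling and -1.04 with the GC trend removed. The cytosolic co-chaperones DNAJA1 (91.7 and 77.7 TPM) and DNAJA2 (17.7 and 10.2 TPM) had changes of -0.24 and -0.75, and that of DNAJA1 turned to 0.21 with the GC trend removed.

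DNAJB1 (HSP40), the stress-inducible partner of HSPA1A, went the other way from it, with 107.8 and 118.9 TPM and a change of 0.14. DNAJB1 shares 6.41% of its exon bases with TECR on the opposite strand, which had 437.9 and 663.3 TPM, and the strand setting of the counting is not given in the sources used here. DNAJB6, a potent inhibitor of amyloid aggregation, had 21.1 and 29.1 TPM (0.45). DNAJB4 had 2.89 and 1.71 TPM (-0.52), and DNAJC7, which passes clients between HSP70 and HSP90, had 90.1 and 59.8 TPM (-0.58). On the opposite strand DNAJC7 shares 3.38% of its exon bases with CNP (38.8 and 7.25 TPM) and 3.71% with NKIRAS2 (27.2 and 2.24 TPM). The median of the 7 J-domain genes was -0.52 as deposited, -0.35 on rescaling and -0.06 with the GC trend removed.

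The 3 HSP90 genes among the members, those of the cytosol and mitochondria, were lower in PLC-8024-GDF1 by less than 2-fold, under each of the 3 scalings. Of all genes, 63.3% were lower as deposited, 50% on rescaling and 46.6% with the GC trend removed. HSP90AB1, the constitutive cytosolic form, was the second most abundant member in both libraries, with 968.4 and 667.3 TPM and a change of -0.54. HSP90AA1, the inducible form, had 226.9 and 142.6 TPM (-0.67), and the ratio between these 2 genes was 4.27 in PLC-8024-CTR and 4.68 in PLC-8024-GDF1. TRAP1, the HSP90 of mitochondria, had 217.5 and 117.4 TPM (-0.88). TRAP1 shares 28.5% of its exon bases with DNASE1 on the opposite strand. The 3 members summed to 1413 TPM in the control and 927.3 TPM in the GDF1 library. HSP90B1, the HSP90 of the endoplasmic reticulum, is no member and was also picked after its values were seen. It had 723.5 and 886.9 TPM, a change of 0.29, or 0.53 on rescaling and 0.75 with the GC trend removed.

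The co-chaperones of HSP90 differed in the size of their change as deposited. STIP1 (HOP), which hands clients from HSP70 to HSP90, had 93.7 and 51.7 TPM (-0.84), and PTGES3 (p23), which binds the closed form, had 43.1 and 27.0 TPM (-0.66). AHSA1, the activator of the HSP90 ATPase, had 240.5 and 205.6 TPM (-0.23), and CDC37, which brings kinases to HSP90, had 318.6 and 273.1 TPM (-0.22). On rescaling STIP1 was at -0.61 and PTGES3 at -0.43, while AHSA1 and CDC37 were at 0.01. With the GC trend removed STIP1 was at -0.69, PTGES3 at -0.24, CDC37 at -0.20 and AHSA1 at 0.02, so PTGES3 then lay beside CDC37.

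The cytosolic chaperonin TRiC is a double ring in which each subunit holds a fixed place, and 7 of its subunit genes are members. All 7 were lower as deposited, by -0.22 to -1.12, against 63.3% of all genes. On rescaling 6 of 7 were lower (50% of all genes), and with the GC trend removed 5 of 7 (46.6%). CCT5 (ENSG00000150753, GRCh37 chromosome 5, 10250041 to 10266501) had 212.8 and 97.6 TPM and fell by 1.12, or by 0.88 on rescaling, which is short of 2-fold. TCP1 had 126.3 and 70.4 TPM (-0.84), CCT2 198.6 and 122.9 TPM (-0.69) and CCT8 237.2 and 162.4 TPM (-0.54). TCP1 shares 9.30% of its exon bases with ACAT2 on the opposite strand, which had 98.9 and 78.3 TPM.

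The other subunits differed less. CCT4 had 178.2 and 139.0 TPM (-0.36), CCT7 362.8 and 294.6 TPM (-0.30) and CCT3 388.3 and 333.9 TPM (-0.22). CCT3 turned to 0.02 on rescaling, and CCT3 and CCT4 to 0.03 and 0.06 with the GC trend removed. The highest subunit mRNA was 3.07 times the lowest in PLC-8024-CTR and 4.75 times in PLC-8024-GDF1, with CCT3 at the top and TCP1 at the bottom in both. The subunits summed to 1704 and 1221 TPM. CCT6A, a further subunit that is no member and was picked after its values were seen, had 139.7 and 84.4 TPM (-0.72).

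The mitochondrial chaperonin HSPD1 (HSP60, ENSG00000144381, GRCh37 chromosome 2, 198351308 to 198381461) had 282.6 TPM in the control and 113.5 TPM in the GDF1 library. It fell by 1.31 as deposited and by 1.07 on rescaling, and was at -0.83 with the GC trend removed. HSPE1 (HSP10), the lid of its folding chamber, is encoded next to it on the other strand, with 135 exon bases in common, and had 220.6 and 126.8 TPM (-0.79). The ratio of HSPD1 to HSPE1 was 1.28 in PLC-8024-CTR and 0.895 in PLC-8024-GDF1, so the more abundant mRNA of the pair changed from HSPD1 to HSPE1. HSPE1 shares 14.6% of its windows with the read-through gene HSPE1-MOB4, which had 12.6 and 8.24 TPM, and with the pseudogene HSPE1P2.

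CLPB, a disaggregase of the mitochondrial intermembrane space, was the 1 mitochondrial member with a higher value, with 11.5 and 14.8 TPM (0.34). The 6 mitochondrial members, HSPD1, HSPE1, HSPA9, TRAP1, DNAJA3 and CLPB, had a median change of -0.84, against -0.52 over the 35 members of the cytosol and nucleus. On rescaling these medians were -0.60 and -0.30, and with the GC trend removed -0.53 and -0.20. In summed TPM, the mitochondrial members had 956.6 in PLC-8024-CTR and 510.1 in PLC-8024-GDF1, and the others 6514 and 6564.

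HSPB1 weighed heavily in these sums. The share of the library total that all 41 members took was 0.747% in control and 0.707% in GDF1 cells, with sums of 7470 and 7074 TPM. The ratio of the sums was 0.947 as deposited and 1.12 on rescaling, so its direction depended on the scaling. Without HSPB1 the sums were 6322 and 4331 TPM, a ratio of 0.685. In PLC-8024-CTR the mRNA of HSPB1 was 1.496 times that of HSPA8 and 1.19 times that of HSP90AB1. In PLC-8024-GDF1 these ratios were 6.24 and 4.11.

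**Figure D3:**
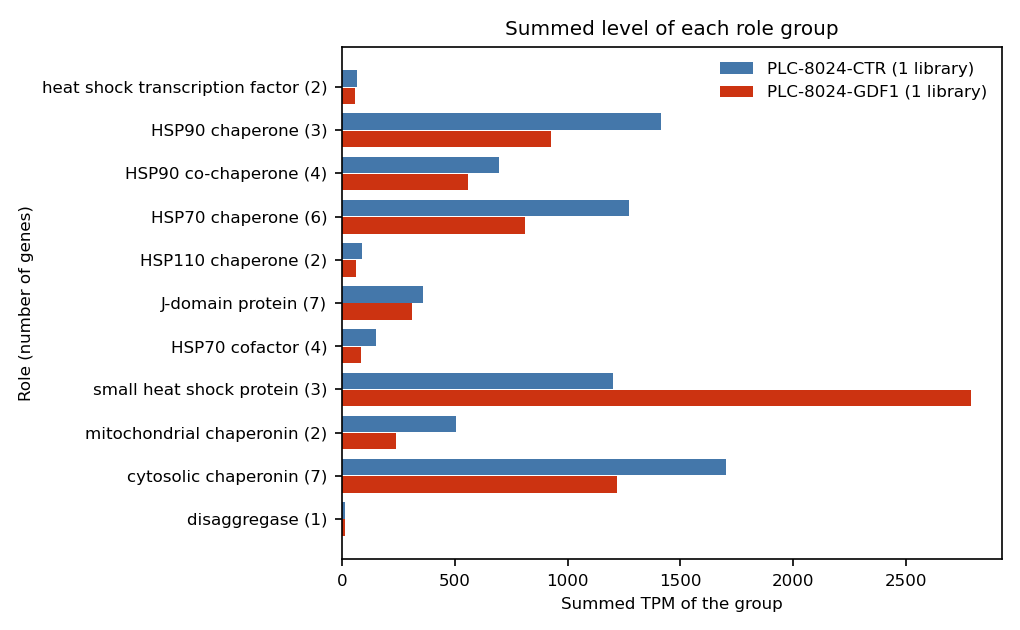
Summed TPM of the members by role, with the number of genes in brackets, in PLC-8024-CTR (blue) and PLC-8024-GDF1 (red), 1 library each. The small heat shock proteins go from 1202 to 2786 TPM, of which HSPB1 is 1148 and 2743, while HSP90, HSP70 and both chaperonin groups have shorter bars in PLC-8024-GDF1.

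The members were next set beside other genes of high level. At a level of at least 100 TPM in either library, 21 members had a median change of -0.59, against 0.02 over all 1507 such genes. Of the 21, 19 were lower by any amount, against 48.4% of such genes, with 1 past 2-fold higher (3.32%) and 3 past 2-fold lower (6.37%). The number of members with at least 100 TPM was 21 in PLC-8024-CTR and 17 in PLC-8024-GDF1. CCT5, ST13, TCP1 and HSPA1B passed this filter only through the control library, with 97.6, 49.0, 70.4 and 91.0 TPM in PLC-8024-GDF1. A gene that passes in this way is lower by selection, and CCT5 and ST13 are among the 3 past 2-fold lower. The same filter was applied to all 1507 genes, and its part in the contrast with them was not tested. Changes went with GC content among the members (Spearman 0.40, n = 41 genes) as over 11792 protein-coding genes (0.33), and the GC content of the members, with a median of 45.7%, was below that of these genes, 49.4%. Genes of 1 library pair are not independent, and the part of GC content beyond the removed trend was not tested.

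**Figure D4:**
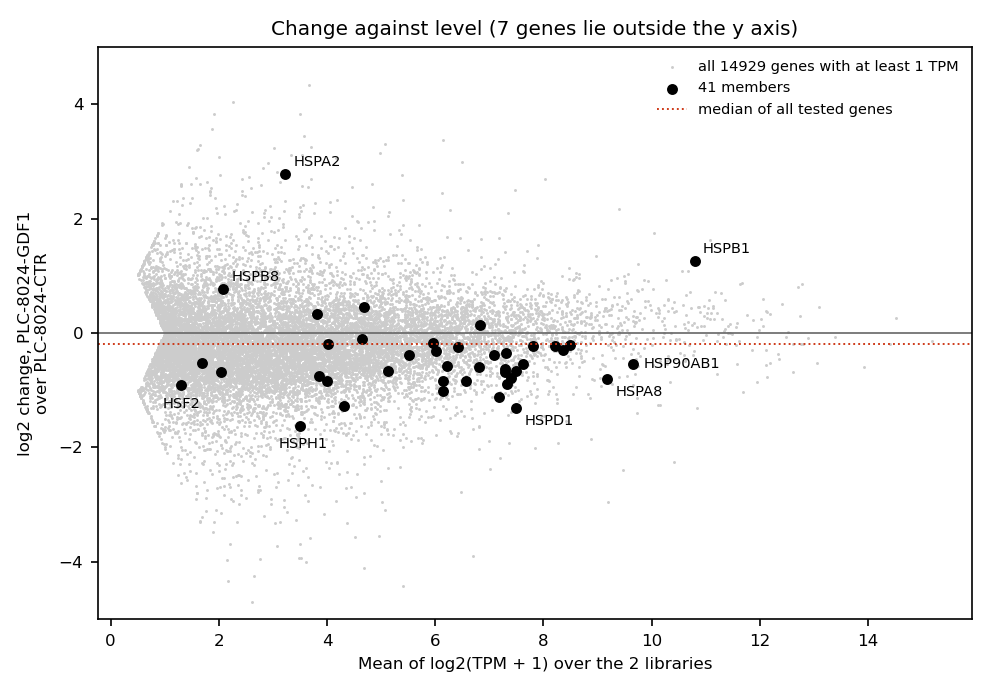
Log2 change, GDF1 library over control library, against the mean of log2(TPM + 1) over both libraries, for 14929 genes (grey) and the 41 members (black). The dotted line is the median of all genes, -0.20. Among abundant genes on the right most members lie below the grey cloud's centre, and HSPB1, at 1.26, lies above it.

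Chaperone genes beyond the 41 members had a median change near that of all genes. Of 81 further genes, among them other J-domain proteins, HSP90 cofactors, prefoldin and mitochondrial proteases, 69 reached 1 TPM, and their median change was -0.18, or 0.04 on rescaling and 0.14 with the GC trend removed. By group, the lowest medians were -0.41 over 8 other mitochondrial chaperones and proteases and -0.39 over 6 other HSP70 and HSP110 genes. With the GC trend removed these were -0.25 and -0.04. The highest was 0.09, over 5 other HSP70 cofactors, or 0.17 with the GC trend removed. They counted 2 genes past 2-fold higher (4.82% of all genes) and 4 past 2-fold lower (9.61% of all genes), with 63 within. On rescaling the counts were 2 (7.38% of all genes) and 3 (6.52%), and with the GC trend removed 2 (7.04%) and 1 (5.38%). DNAJB2, a J-domain protein best known in neurons that sorts clients to the proteasome, rose from 21.8 to 74.7 TPM (1.73). DNAJC14 fell from 5.02 to 1.30 TPM (-1.39) and DNAJC25 from 5.13 to 1.93 TPM (-1.07, or -0.91 on rescaling), but DNAJC14 shares 23.2% of its exon bases with a gene on the same strand, ENSG00000257390, which had 7.96 and 1.87 TPM, and DNAJC25 shares exon bases with the read-through gene DNAJC25-GNG10. The others past 2-fold had under 5 TPM, are outside the rule for named genes and were picked after their values were seen. FKBP5, an HSP90 cofactor of steroid receptors, had 0.58 and 4.31 TPM, DNAJC13 3.77 and 0.78 TPM, and DNAJC16 3.95 and 1.02 TPM.

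Folding in the endoplasmic reticulum and degradation were set beside the members. Over 17 folding genes of the endoplasmic reticulum the median change was 0.05. Of these, 8 were lower by any amount (63.3% of all genes) and 0 past 2-fold lower (9.61% of all genes). On rescaling 3 of 17 were lower (50% of all genes) and 2 past 2-fold higher (7.38%). With the GC trend removed 2 of 17 were lower (46.6% of all genes) and 1 past 2-fold higher (7.04%). MANF, a secreted protein of the endoplasmic reticulum stress response, rose from 120.6 to 252.7 TPM (1.06). It was the 1 of 17 past 2-fold higher as deposited, against 4.82% of all genes. Over 31 proteasome subunits the median was -0.26, and 24 were lower by any amount, against 63.3% of all genes. On rescaling 16 of 31 were lower (50% of all genes), and with the GC trend removed 14 of 31 (46.6% of all genes). PSMD12 fell from 19.7 to 7.43 TPM (-1.297) and PSMD14 from 93.0 to 44.4 TPM (-1.05), 2 of 31 subunits (9.61% of all genes). On rescaling these changes were -1.09 and -0.82. With the GC trend removed they were -0.82 and -0.59. Of the 31 subunits 0 were then past 2-fold higher (7.04% of all genes) and 0 past 2-fold lower (5.38%). On rescaling the medians were 0.29 for the endoplasmic reticulum and -0.03 for the proteasome, against -0.35 for the members, and no test of these differences was possible with 1 library per condition.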

How the data were processed

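RNA-seq comprised 1 library of PLC-8024-CTR and 1 of PLC-8024-GDF1. As the study's methods state, poly-A RNA was made into libraries with the VAHTS mRNA-seq V2 kit and sequenced paired-end, and reads were checked with FastQC (0.11.2), trimmed with Trimmomatic (0.36), aligned to hg19 with HISAT2 (2.1.0) and quantified with StringTie (1.3.3b). The authors deposited TPM values for 58174 genes. Their methods name the RefSeq annotation, the files list Ensembl identifiers, and the value column is headed as a mean although each condition has 1 library. TPM keeps no depth, so no interval is given.

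Tables were joined on the identifier. Changes used a pseudocount of 1, a minimum of 1 TPM in either library and a threshold of 2-fold. The GC trend was a lowess fit with a span of 0.3 on the longest transcript, from GENCODE v44 on GRCh37, which held 55726 identifiers. Alternatives were a pseudocount of 0.1, the plain TPM ratio, both scalings, a scaling without mitochondrial transcripts, GDF1 and CERS1, minimums of 5 and 10 TPM or none, pseudogenes added, and HSPA1A and HSPA1B added up. Windows of 100 bases found shared sequence. Promoters came from RefSeq. Python 3.11.15, numpy 2.4.6, pandas 2.3.3, statsmodels 0.14.6 and matplotlib 3.10.9 were used, and the code was tested on simulated data.

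The members and lists were chosen with earlier results of these data known. Named were all members, GDF1 and CERS1, and genes of the other lists past 2-fold with at least 5 TPM, with the cell type markers. The authors' own differential expression results were not used.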

Additional observations from a re-analysis of the deposited data

How the results depend on the processing

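A change was read by its direction and its side of 2-fold, and a count as kept within 1.5 times. The members past 2-fold were 2 higher (4.82% of all genes) and 5 lower (9.61%). They came to 3 lower on rescaling (6.52% of all genes) and 2 lower with the GC trend removed (5.38%). At a minimum of 100 TPM they came to 1 higher (3.32% of such genes) and 3 lower (6.37%). That minimum was an alternative chosen after seeing the data, as was leaving out HSPB1. The summed ratio was 1.12 on rescaling. The median of the small heat shock proteins passed 2-fold as a plain TPM ratio (1.02). The further chaperone genes, 2 higher and 4 lower of 69, came to 7 lower with a pseudocount of 0.1 and 7 as a plain ratio. With the GC trend removed they came to 1 lower (5.38% of all genes). At 5 TPM they came to 1 higher and 2 lower, and at 10 TPM to 1 higher and 0 lower. All genes past 2-fold were 720 higher (4.82%) and 1434 lower (9.61%) of 14929. Of the same 14929 they came to 1167 and 2315 with a pseudocount of 0.1, and to 1229 and 2437 as a plain ratio. They came to 1102 higher on rescaling (7.38%) and to 788 lower with the GC trend removed (5.38%). At 5 TPM they came to 471 higher of 9632 genes, and at 10 TPM to 331 and 732 of 7276. Among single members, 6 changed direction on rescaling (HSF1, AHSA1, CDC37, HSPA14, BAG1 and CCT3) and 8 with the GC trend removed (AHSA1, HSPA14, HSPA4, DNAJA1, BAG1, HSPB11, CCT3 and CCT4), all of them within 2-fold. The cause of these differences was not tested. No direction reversed for a member past 2-fold. No paired analysis was possible because the 2 conditions have 1 library apiece and share no replicate. Low TPM values carry the most uncertainty, and without counts its size is unknown.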
